A study of Mus musculus with 8 samples.

Results

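Guanylate-binding proteins (GBPs) are large GTPases that interferon gamma induces strongly in macrophages. They gather on the membranes of vacuoles that hold bacteria or parasites and on bacteria in the cytosol, and there they help to break the vacuole open and to bring lipopolysaccharide to caspase-11. Mouse GBP genes lie in a cluster on chromosome 3 and another on chromosome 5, and mice that lack the chromosome 3 cluster control Toxoplasma poorly. In the classical route interferon gamma signals through JAK kinases and induces the factor IRF1, and GBP promoters carry GAS and ISRE motifs, of which IRF1 binds the ISRE.

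The 7 members were the rows of the deposited table with the symbols Gbp2, Gbp3, Gbp4, Gbp5, Gbp6, Gbp7 and Gbp9, out of 41444 genes listed. In 4 libraries, bone marrow-derived macrophages had been given 6 nM SLIT2, a secreted ligand of ROBO receptors, for 16 hours. They were set against 4 libraries of the same kind of cells given vehicle, whose composition and duration the labels do not state. All cells came from wild-type C57BL/6 mice and grew in 100 ng/mL of the macrophage growth factor M-CSF. They had 2 days of adhesion on non-treated dishes and then 6 days on treated plastic. Levels are the authors' rlog values (DESeq2's regularized logarithm, in log2 units), so a difference of 1 is a doubling. The table holds no counts, so the depth of each library is unknown. Whether replicates were separate cultures or mice is not stated. The p-values therefore reflect the spread among these 8 samples, and that spread may be technical.

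Identifiers showed that not every symbol of the table names the same gene today. The row called Gbp5 carries ENSMUSG00000040264, which GENCODE M21 names Gbp2b, formerly Gbp1, and it is called Gbp2b here. The annotation release used for the deposited values is not given, so the gene model measured may differ from that of GENCODE M21. Positions and lengths of genes given here are those of GENCODE M21. The row called Gbp6 carries ENSMUSG00000079362, which GENCODE M21 names Gm43302. Of its stretches of 101 bases, the length of a read, 98.8% also occurred in transcripts of other GBP genes, with 87.4% in those of Gbp6. The identifiers that GENCODE M21 gives to Gbp5, Gbp6 and Gbp10 had no row of their own among the genes listed. Sharing was lower in the other rows. Gbp2 and Gbp2b shared 0 stretches with transcripts of any other gene, and Gbp3 shared 0.665% of its stretches with other GBP genes. Gbp7 shared 0.41% with other GBP genes and 9.57% with the pseudogene Gm43802, which overlaps 637 bases of its exons on the same strand. Gbp9 shared 1.61% and Gbp4 1.60% with other GBP genes. Gbp4, Gbp8 and Gbp9 overlap on the same strand by up to 61 exonic bases, fewer than the 101 bases of a read.

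Tests covered the 5 members whose rlog averaged 4 or more, and 4 of these 5 rose with SLIT2. The 4 were Gbp2, Gbp2b, Gbp3 and Gbp7, all on the plus strand of chromosome 3 between 142530342 and 142638008 (GRCm38). Over all 11851 genes tested, 13.3% passed the limma test, 6.76% as higher and 6.58% as lower. The median difference was 1.34 over the 5 members and 0.0025 over all genes tested. A difference of at least 1 on the log2 scale was reached by 1.35% of all genes. RefSeq (GRCm38.p6) promoter windows, 250 bases before the start site and 50 after it, matched these 4 of the 7 members and are shown because the genes moved together. No window is shown for Gbp4, Gbp9 or the row called Gbp6. Capitals mark matches to ISRE (GAAA, any 2 bases and GAAA, or on the other strand TTTC, any 2 bases and TTTC) and to GAS (TTC, any 3 bases and GAA, the same on both strands). All windows are on the plus strand, at chr3:142620413-142620712 for Gbp2, chr3:142594597-142594896 for Gbp2b, chr3:142559794-142560093 for Gbp3 and chr3:142530086-142530385 for Gbp7.
Gbp2: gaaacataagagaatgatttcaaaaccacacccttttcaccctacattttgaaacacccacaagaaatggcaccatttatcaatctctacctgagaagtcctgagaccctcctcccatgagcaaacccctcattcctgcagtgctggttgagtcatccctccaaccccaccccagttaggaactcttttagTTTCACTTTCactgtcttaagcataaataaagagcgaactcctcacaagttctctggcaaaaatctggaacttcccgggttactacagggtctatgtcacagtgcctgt
Gbp2b: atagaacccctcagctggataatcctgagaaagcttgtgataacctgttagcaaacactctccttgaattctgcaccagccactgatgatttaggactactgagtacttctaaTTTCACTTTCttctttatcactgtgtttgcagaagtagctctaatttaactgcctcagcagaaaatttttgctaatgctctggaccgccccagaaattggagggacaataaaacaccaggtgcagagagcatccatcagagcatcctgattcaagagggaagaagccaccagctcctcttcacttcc
Gbp3: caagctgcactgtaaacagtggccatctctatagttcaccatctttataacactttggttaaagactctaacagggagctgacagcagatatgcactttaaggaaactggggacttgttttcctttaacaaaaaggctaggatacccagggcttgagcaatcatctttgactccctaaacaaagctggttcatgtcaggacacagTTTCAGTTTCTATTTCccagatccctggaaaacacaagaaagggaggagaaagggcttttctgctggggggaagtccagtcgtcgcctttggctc
Gbp7: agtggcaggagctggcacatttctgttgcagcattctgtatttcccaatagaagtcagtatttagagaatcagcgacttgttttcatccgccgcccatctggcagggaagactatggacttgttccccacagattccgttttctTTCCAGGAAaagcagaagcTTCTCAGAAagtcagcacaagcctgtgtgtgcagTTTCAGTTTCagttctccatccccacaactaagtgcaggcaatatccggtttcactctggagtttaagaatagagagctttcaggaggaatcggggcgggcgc

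An ISRE match stood 59 bases before the start site of Gbp2, 137 bases before that of Gbp2b and 53 bases before that of Gbp7. Gbp3 had a pair of overlapping ISRE matches that began 45 and 39 bases before the start. An ISRE match thus occurred in 4 of the 5 windows of these 4 genes and, as background, in 3.44% of the 32851 promoter windows in the RefSeq table. This is a description of a few neighbouring genes with no test. GAS matches stood in the Gbp7 window alone among the 4 genes, 106 and 87 bases before the start, and in 8.30% of all windows, and none overlapped an ISRE match. A looser kappa-B pattern (GGG, any 5 bases and CC, or on the other strand GG, any 5 bases and CCC) occurred in 3 of the 4 genes and in 50.8% of all windows, and none of its matches overlapped an ISRE or GAS match. A further Gbp3 window, chr3:142560106-142560405, held none of the 3 patterns. These matches describe the letters and do not show that a factor binds there.

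**Figure D1:**
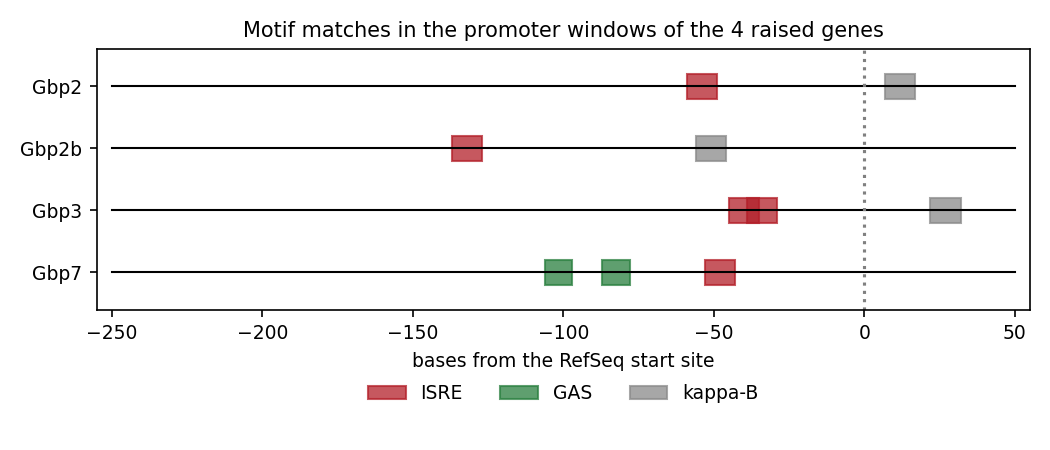
Positions of ISRE, GAS and kappa-B matches in the promoter windows of Gbp2, Gbp2b, Gbp3 and Gbp7, in bases from the RefSeq start site (dotted line at 0); boxes span the matched bases. Every window holds an ISRE match before the start site, the Gbp7 window holds 2 GAS matches, and the kappa-B match of Gbp2 and of Gbp3 lies after the start.

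Gbp2 reaches pathogen vacuoles in mouse macrophages and promotes caspase-11 and AIM2 inflammasome activation (ENSMUSG00000028270, chromosome 3, 142620602 to 142638008). Its rlog values were 10.57, 10.54, 10.44 and 10.51 in SLIT2 replicates 1 to 4, against 9.46, 9.57, 8.98 and 8.91 in vehicle replicates 1 to 4. The 4 SLIT2 libraries lay within 0.13 of each other and all above the vehicle libraries, with a gap of 0.87 between the groups. The means were 10.52 ± 0.056 with SLIT2 and 9.23 ± 0.33 with vehicle (SD, n = 4 each). The difference was 1.29 on the log2 scale, or 2.44-fold (SE 0.15, limma adjusted p = 0.00104).

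Gbp2b, the gene once called Gbp1 (chromosome 3, 142594847 to 142619179), had the widest difference of the 7 members. It stood at 9.06, 9.05, 8.50 and 8.54 in SLIT2 replicates 1 to 4, against 7.52, 7.50, 6.59 and 6.78 in vehicle replicates 1 to 4. The lowest SLIT2 library was 0.98 above the highest vehicle library. The means were 8.79 ± 0.31 with SLIT2 and 7.10 ± 0.48 with vehicle (SD, n = 4 each), a difference of 1.69 or 3.23-fold (SE 0.25, limma adjusted p = 0.00329). Its difference ranked 39th from the highest of the 11851 genes tested.

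Gbp3, part of the same cluster (ENSMUSG00000028268, chromosome 3, 142560026 to 142573209), had 9.91, 10.00, 9.75 and 9.63 in SLIT2 replicates 1 to 4, against 8.89, 8.75, 8.18 and 8.13 in vehicle replicates 1 to 4. The groups were 0.74 apart at their nearest. The means were 9.82 ± 0.16 with SLIT2 and 8.49 ± 0.39 with vehicle (SD, n = 4 each), a difference of 1.34 or 2.52-fold (SE 0.19, limma adjusted p = 0.00239).

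Gbp7, which aids defence against intracellular bacteria in mouse macrophages (ENSMUSG00000040253, chromosome 3, 142530342 to 142550149), had 10.90, 10.87, 10.39 and 10.14 in SLIT2 replicates 1 to 4, against 9.79, 9.76, 8.62 and 8.59 in vehicle replicates 1 to 4. The groups did not overlap, but the gap of 0.35 was the narrowest of the 4 raised genes. The means were 10.58 ± 0.37 with SLIT2 and 9.19 ± 0.68 with vehicle (SD, n = 4 each), a difference of 1.39 or 2.61-fold (SE 0.33, limma adjusted p = 0.0295). Its call was lost when SLIT2 replicate 1, 2 or 3 or vehicle replicate 3 or 4 was left out, with limma adjusted p between 0.0561 and 0.0824 and differences between 1.19 and 1.45. Groups without overlap were found at 4 of the 5 tested members and at 20.5% of all genes tested, of which 10.6% had SLIT2 higher and 9.99% had it lower.

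Gbp9, a member of the chromosome 5 cluster on the minus strand (ENSMUSG00000029298, 105077630 to 105139539), did not pass the test. It had 9.32, 9.09, 8.89 and 8.97 in SLIT2 replicates 1 to 4, against 9.40, 9.41, 9.10 and 8.88 in vehicle replicates 1 to 4, so the groups overlapped. The means were 9.07 ± 0.19 with SLIT2 and 9.20 ± 0.26 with vehicle (SD, n = 4 each), a difference of -0.13 (SE 0.14, limma adjusted p = 0.642). Gbp4, also on chromosome 5 (105115767 to 105139586), was listed at 0 in all 8 libraries. A listed 0 does not show absence in this table, since Tyrobp, an adaptor gene that macrophages express, was also listed at 0 in all 8. The row called Gbp6 held -1.08 in SLIT2 replicate 1 and between -1.16 and -1.15 in the other libraries, below the level tested. Of the family rows outside the 7 members, Gbp8 on chromosome 5 had 4.71, 4.48, 4.20 and 4.78 in SLIT2 replicates 1 to 4, against 5.16, 4.97, 4.89 and 4.71 in vehicle replicates 1 to 4. Its difference was -0.39 (SE 0.15, limma adjusted p = 0.141), and Gbp11, annotated as a polymorphic pseudogene, lay between -1.41 and -1.39 in every library.

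**Figure D2:**
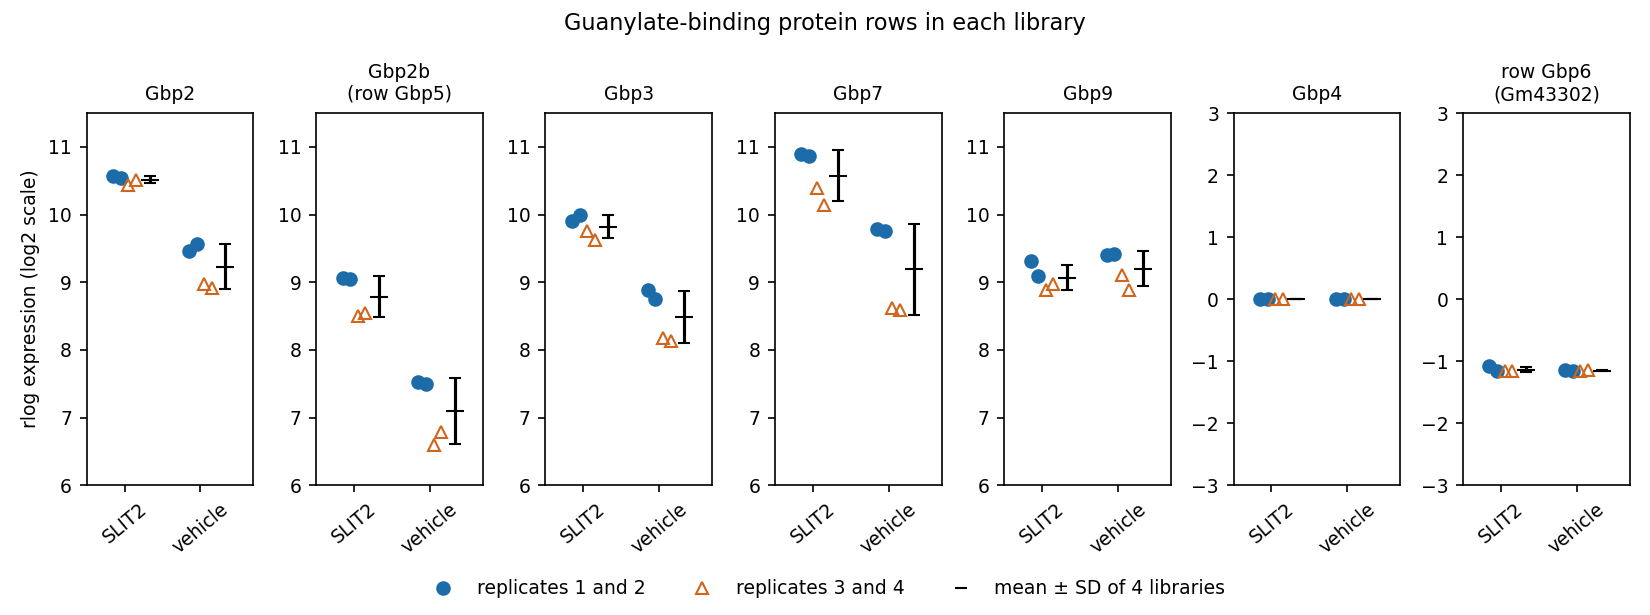
rlog expression (log2 scale) of the 7 GBP rows in each SLIT2 and vehicle library, with filled circles for replicates 1 and 2, open triangles for replicates 3 and 4, and bars for the mean ± SD of 4 libraries; the panels for Gbp4 and the row called Gbp6 have a lower axis range. SLIT2 libraries lie above all vehicle libraries for Gbp2, Gbp2b, Gbp3 and Gbp7, and overlap with them for Gbp9. Gbp4 is listed at 0 in every library, and the row called Gbp6 lies between -1.16 and -1.08.

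Per kilobase of annotated exon, Gbp2 was the most abundant of the measured family rows in both groups. These per-length levels are rlog values minus the log2 of the exon length in kilobases. With SLIT2 the order was Gbp2 at 9.18 ± 0.056, Gbp3 at 8.12 ± 0.16, Gbp7 at 8.09 ± 0.37, Gbp2b at 7.29 ± 0.31, Gbp9 at 6.70 ± 0.19 and Gbp8 at 2.76 ± 0.26 (SD, n = 4). With vehicle the order was Gbp2 at 7.90 ± 0.33, Gbp9 at 6.83 ± 0.26, Gbp3 at 6.78 ± 0.39, Gbp7 at 6.70 ± 0.68, Gbp2b at 5.60 ± 0.48 and Gbp8 at 3.15 ± 0.19 (SD, n = 4). Gbp3 and Gbp7 overlapped with SLIT2, and Gbp9, Gbp3 and Gbp7 overlapped with vehicle, so their order is not resolved, while the other neighbours in each order did not overlap. Gbp9 thus stood below Gbp2b in the SLIT2 group and above it in the vehicle group. With the longest transcript as the length, Gbp3 stood at 8.40 with SLIT2 and 7.06 with vehicle, and the order of the other genes among themselves did not change.

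The libraries fell into replicate sets. Replicates 3 and 4 lay apart from replicates 1 and 2 within each treatment, and the labels do not say what the numbers mark. The 5 tested members were lower in replicates 3 and 4 than in replicates 1 and 2 in both treatments. In vehicle cells Gbp7 averaged 8.61 in replicates 3 and 4 and 9.78 in replicates 1 and 2, and Gbp2 averaged 8.95 and 9.52 in the same sets. With SLIT2 the sets were closer for Gbp2 (10.48 in replicates 3 and 4, 10.56 in replicates 1 and 2). Treatment took a share of each gene's sum of squares of 90.6% for Gbp2, 87.0% for Gbp3, 85.3% for Gbp2b and 68.2% for Gbp7. The replicate set took 28.5% for Gbp7 and, for Gbp9, 70.9% against 10.1% for treatment.

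The 4 raised genes were higher with SLIT2 within each set. The SLIT2 effect in replicates 3 and 4 was 1.53 for Gbp2, 1.84 for Gbp2b, 1.54 for Gbp3 and 1.66 for Gbp7. Replicates 1 and 2 gave 1.04 for Gbp2, 1.55 for Gbp2b, 1.14 for Gbp3 and 1.11 for Gbp7. Gbp9 differed by -0.06 in the later-numbered set and by -0.20 in the other. All 4 raised genes passed limma in each set alone, where 24.3% of all genes passed in replicates 3 and 4 and 33.4% in replicates 1 and 2. Whether the effect itself differed between sets was tested with limma against the variation of duplicates, and 2 of the 5 tested members passed, against 4.4% of all genes (2.12% with a wider effect in replicates 3 and 4 and 2.28% with the opposite sign). The SLIT2 effect was wider in replicates 3 and 4 by 0.49 for Gbp2 (SE 0.076, limma adjusted p = 0.0148) and by 0.55 for Gbp7 (SE 0.10, limma adjusted p = 0.0279). Without a variance trend both calls were lost (limma adjusted p = 0.0531 for Gbp2 and 0.0835 for Gbp7), and with no filter on the mean that of Gbp7 was lost (0.0557). Gbp3 differed between the sets by 0.40 (limma adjusted p = 0.0683) and Gbp2b by 0.29 (limma adjusted p = 0.217). The 4 calls for SLIT2 against vehicle also held with the replicate number as a block, where 33.0% of all genes passed, and with each duplicate averaged to 1 sample, where 5.81% passed (3.15% higher and 2.66% lower). Their limma adjusted p in the averaged fit lay between 0.0292 and 0.0465.

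**Figure D3:**
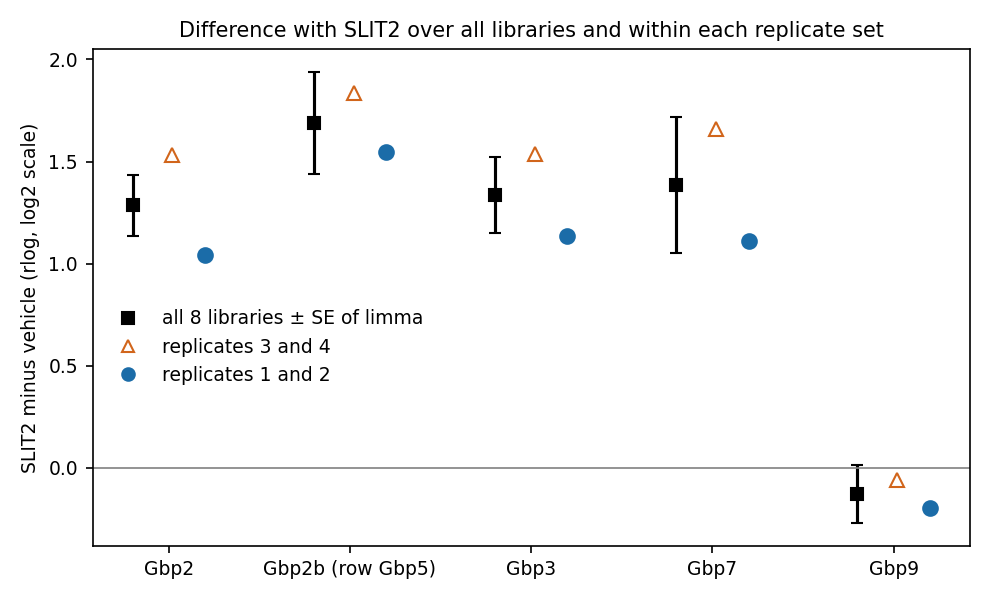
SLIT2 minus vehicle differences in rlog expression (log2 scale) for the 5 tested members over all 8 libraries (squares, with the limma SE), in replicates 3 and 4 (triangles) and in replicates 1 and 2 (circles). The differences of Gbp2, Gbp2b, Gbp3 and Gbp7 lie between 1.04 and 1.84 in every set and are wider in replicates 3 and 4, while those of Gbp9 lie between -0.20 and -0.06.

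The genes whose values followed the mean of the tested members most closely were sought over all genes tested. The measure was Pearson's r over the 8 libraries with the mean of the 5 tested members, each centred on its own mean. These libraries share treatment and replicate set, so r describes a shared pattern of both. Outside the family the highest r were 0.996 for Trib1, a pseudokinase gene, 0.996 for Il21r, the interleukin-21 receptor, 0.995 for Rabep2, an effector of Rab GTPases, 0.994 for Cenpo, a centromere protein gene, and 0.994 for Nxpe5. The members' own r cannot be compared with these, because each member is part of that mean. Even so, r with that mean was 0.115 for Gbp9, against 0.977 to 0.993 for the 4 raised genes. The mean thus follows the raised genes and not Gbp9. The sizes of the differences varied, with 2.63 for Nxpe5, 1.71 for Il21r, 0.98 for Trib1, 0.39 for Cenpo and 0.23 for Rabep2.

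Among 18 genes of interferon gamma reception and its JAK and IRF regulators, 6 rose and 0 fell by limma (12 rose with the replicate block and 4 with averaged duplicates), and the list median was 0.22. At an unadjusted limma p under 0.05, 11 were higher and 0 lower, against 13.3% higher and 13.0% lower over all genes tested. Past the adjusted threshold, 6.76% of all genes tested were higher and 6.58% lower. Irf1, a transcription factor that drives GBP genes, had 12.24, 12.24, 12.13 and 12.08 in SLIT2 replicates 1 to 4, against 11.31, 11.28, 11.15 and 11.15 in vehicle replicates 1 to 4. The groups did not overlap, and the difference of 0.95 (SE 0.059, limma adjusted p = 6.38e-05) was nearly the same in both replicate sets (0.955 in replicates 3 and 4, 0.945 in the others). The MHC class I activator Nlrc5 rose by 0.99 (SE 0.10, limma adjusted p = 6.10e-04), Batf2 by 0.65 (SE 0.13, limma adjusted p = 0.0130) and the feedback inhibitor Socs3 by 4.52 (SE 0.081, limma adjusted p = 7.64e-08). Jak2 rose by 0.58 (SE 0.15, limma adjusted p = 0.0390) and Ciita by 0.84 (SE 0.20, limma adjusted p = 0.0303). Averaged duplicates ended the calls of Batf2 (limma adjusted p = 0.0550) and Jak2 (0.101). The call of Jak2 was also lost with no filter and without SLIT2 replicate 1 or 2 or any vehicle replicate, and that of Ciita without SLIT2 replicate 1 or 2 or vehicle replicate 3 or 4 (limma adjusted p between 0.0548 and 0.0975). The choice of Jak2 and Ciita followed their values.

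No level could be given for the interferon genes. Ifng, Ifnb1, Ifna1, Ifna2, Ifna4 and Ifna5 were listed at 0 in every library, which does not show absence in this table. Il12a and Il12b lay between -1.55 and -0.71. Of 11 interferon ligands and inducers 2 were tested, and Ebi3, a subunit of interleukin-27, fell by 0.64 (SE 0.11, limma adjusted p = 0.00582). Il27, the other subunit, averaged 3.68 ± 0.097 with SLIT2 and 3.51 ± 0.069 with vehicle (SD, n = 4 each) and was below the level tested. Markers of lymphocytes, which make interferon gamma, were low in both groups. Of 13 T, B and NK cell markers none reached a mean of 4, and Ncr1, Gzma and Prf1 were listed at 0. Without those listed at 0, the markers' summed linear rlog values were 17.1 to 17.8 in SLIT2 libraries and 17.1 to 18.5 in vehicle libraries. The rlog shrinks differences at such low levels, so these sums cannot show whether the groups differ.

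Immunity-related GTPases (IRGs) and other interferon-inducible GTPases, some of which work with GBPs on vacuoles, had 0 of 14 tested genes higher and 1 lower by limma (2 and 2 with the replicate block, 0 and 0 with averaged duplicates, and 1 and 1 at an unadjusted p under 0.05). Across all libraries their median difference was 0.014, and by set it was 0.35 (replicates 3 and 4) and -0.38 (replicates 1 and 2). Among all genes tested, 6.76% were higher and 6.58% lower by limma. Ifi47 differed by 0.785 (SE 0.30, limma adjusted p = 0.133, 0.00205 with the replicate block and 0.0720 with averaged duplicates) and Mx1, an antiviral GTPase gene, by -0.03 (SE 0.35, limma adjusted p = 0.973), both named after their values were seen. The difference between this list and the GBP members was not tested. The gene that fell was 9930111J21Rik2, lower by 0.42 (SE 0.11, limma adjusted p = 0.0363). Its call was lost without vehicle replicate 1 or 2 or any SLIT2 replicate (limma adjusted p between 0.0753 and 0.0873) and with averaged duplicates (0.1099).

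Among 17 genes of the autophagy conjugation system and ubiquitin factors that help bring GBPs to vacuoles, 2 rose and 3 fell. Over all genes tested, 6.76% rose and 6.58% fell by limma. Atg3, the enzyme that attaches lipid to LC3 and GABARAP proteins, rose by 0.31 (SE 0.058, limma adjusted p = 0.00979). Gabarapl1, such a target, fell by 0.50 (SE 0.040, limma adjusted p = 2.08e-04), and the cargo receptor gene Sqstm1 fell by 0.48 (SE 0.047, limma adjusted p = 4.82e-04). Atg5, part of the lipidation complex, rose by 0.30 (SE 0.067, limma adjusted p = 0.0239), and its call was lost without SLIT2 replicate 1 or 2 or vehicle replicate 1, 2 or 3 (limma adjusted p between 0.0543 and 0.0670). Calcoco1, an autophagy receptor gene named after its value was seen, fell by 0.22 (SE 0.055, limma adjusted p = 0.0351). Its call was lost with no filter and without SLIT2 replicate 2, 3 or 4 or vehicle replicate 1, 2 or 3 (limma adjusted p between 0.0619 and 0.0934). Averaged duplicates ended the calls of Atg3 (limma adjusted p = 0.0704), Atg5 (0.156) and Calcoco1 (0.0816). Against 6.76% of all genes tested, 1 of 6 tested genes of prenylation and other handling of GBPs rose. It was Pim1, whose kinase phosphorylates GBP1 in human macrophages, higher by 0.76 (SE 0.085, limma adjusted p = 8.80e-04, and 0.0700 with averaged duplicates).

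Of 12 tested inflammasome genes that act downstream of GBPs, 5 rose and 2 fell, with a median of -0.012. The limma shares over all genes tested were 6.76% higher and 6.58% lower. Casp4, which encodes caspase-11 in mice, had 11.19, 11.17, 11.32 and 11.34 in SLIT2 replicates 1 to 4, against 9.97, 10.01, 10.21 and 10.21 in vehicle replicates 1 to 4. Its groups stood well apart, and the difference was 1.16 (SE 0.074, limma adjusted p = 7.09e-05). The cytokine gene Il1b rose by 2.75 (SE 0.41, limma adjusted p = 0.00354) and Gsdmd, the pore-forming target of caspase-11, by 0.34 (SE 0.070, limma adjusted p = 0.0157). Pycard, the adaptor ASC, rose by 0.31 (SE 0.069, limma adjusted p = 0.0232), and its call was lost without SLIT2 replicate 3 or any vehicle replicate (limma adjusted p between 0.0549 and 0.0634). The DNA sensor gene Aim2 fell by 0.24 (limma adjusted p = 0.0297) and Nlrc4 by 0.31 (0.0352), while Casp1 rose by 0.16 (0.0370), all 3 named after their values were seen. Their calls were lost with no filter. Aim2 was also lost without SLIT2 replicate 3 or any vehicle replicate, Nlrc4 without vehicle replicate 1 or 2 or any SLIT2 replicate, and Casp1 when any 1 of the 8 libraries was left out, in replicates 3 and 4 alone, with no trend and with quantile normalization (limma adjusted p between 0.0516 and 0.228). Averaged duplicates ended the calls of Gsdmd (limma adjusted p = 0.0775), Pycard (0.126), Aim2 (0.0777), Nlrc4 (0.0720) and Casp1 (0.1095), and kept those of Casp4 and Il1b.

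**Figure D4:**
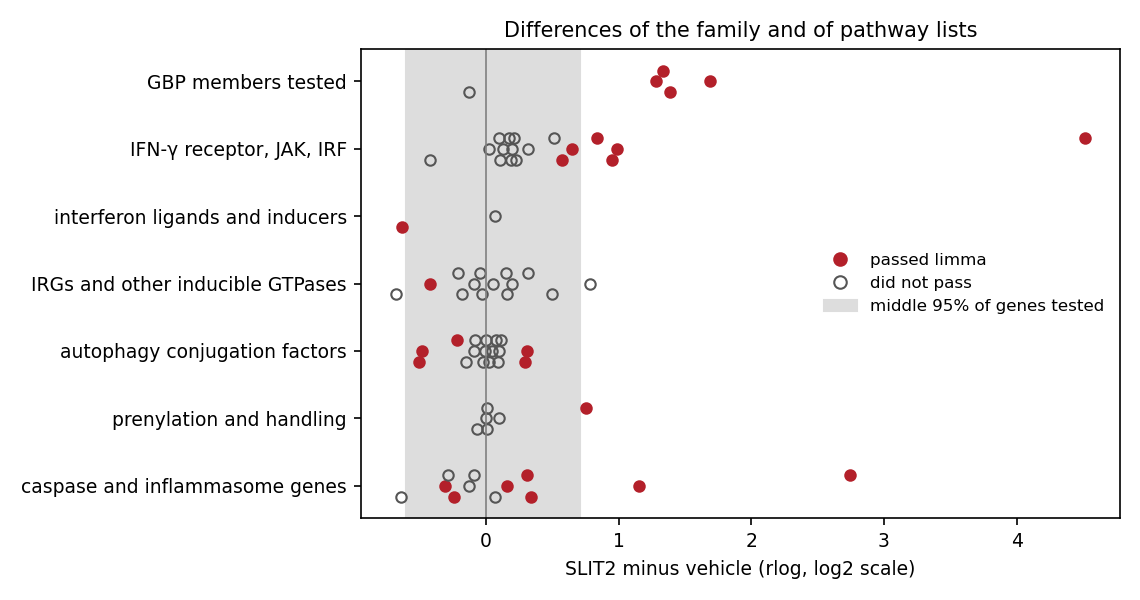
SLIT2 minus vehicle differences in rlog expression (log2 scale) for the 5 tested GBP members and for the tested genes of each pathway list, with filled points for genes past the limma test, open points for the rest and a grey band for the middle 95% of all genes tested. The 4 raised GBP genes lie right of the band, which runs from -0.60 to 0.71, and Gbp9 lies inside it. Of the 14 IRG and inducible GTPase genes, 1 lies left of the band (-0.68) and 1 right of it (0.785), both open.

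Macrophage markers were high, with all 9 tested and Csf1r, the M-CSF receptor gene, at 15.7 with SLIT2 and 15.8 with vehicle. Of these 9, 2 were higher with SLIT2 and 1 lower by limma, against 6.76% and 6.58% of all genes tested. Of 8 stromal and endothelial markers 5 were tested, and their summed linear rlog values were between 1438 and 1820 in SLIT2 libraries and between 1267 and 1529 in vehicle libraries, with Tek listed at 0 and Col3a1 higher with SLIT2 by limma. Neutrophil and dendritic cell markers had 1 tested gene in each list, and their sums lay between 40.9 and 46.1 and between 37.0 and 51.6 in SLIT2 libraries, against 41.6 to 58.9 and 38.3 to 49.6 in vehicle libraries. At 0 were also the neutrophil markers Ly6g and Retnlg, and genes listed at 0 were left out of the sums. The part of these cells in the GBP differences was not tested. In bulk samples a change in the share of cells of a type and a change in RNA per cell cannot be told apart.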

How the data were processed

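RNA was profiled in 4 SLIT2 and 4 vehicle samples of mouse bone marrow-derived macrophages. Per the labels' protocols, each library used 300 ng of RNA and a stranded mRNA kit with 10 PCR cycles, and was read as 101 bp pairs. The submitters' processing notes name STAR, Salmon, DESeq2, Picard 2.23.8, SAMtools 1.7 and FastQC 0.11.9, and the builds mm10 and GRCm38. Settings, annotation release and strand setting: not given in the sources used here. The values deposited by the authors are rlog values on a log2 scale to 2 decimals. The rlog shrinks the differences of low genes, so these are understated. No counts came with them, so depth and counting error are unknown.

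The 11851 genes averaging 4 or more entered limma 3.58.1 (R 4.3.3), with linear models by lmFit and variances moderated by eBayes along a trend on the mean. Tests were two-sided, adjusted by Benjamini and Hochberg's method over all genes tested, with a threshold of 0.05. The fits were tested on simulated data, with no minimum recovery set for the fit of averaged duplicates. Members were taken by symbol and checked by identifier in GENCODE M21 (GRCm38), and promoters came from RefSeq. The planned protein features were not analysed here. Deviations of same-numbered samples from their group means correlated across genes (r of 0.587 to 0.753). This comes from the replicate sets: within sets, the duplicates' differences in SLIT2 and vehicle correlated at -0.042 (replicates 1 and 2) and 0.088 (replicates 3 and 4). The correlation thus follows the set, and no pairing by number within a set was seen.

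Named genes were all 7 members, up to 4 called genes per list in order of p (if none, the smallest p) and the 5 genes nearest to the members' mean profile. Members, lists and tests were chosen with earlier results of these data known. Alternatives were the replicate block, other filters, quantile normalization, other variance priors, leaving out each library, each replicate set alone, averaged duplicates and another gene length. Figures were drawn with matplotlib 3.10.9.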

Additional observations from a re-analysis of the deposited data

Results flagged for a closer look

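The SLIT2 effect differed between the replicate sets at Gbp2 and Gbp7 in the limma test of that difference, which rests on the spread within duplicates. That spread may be technical, so the test cannot tell a differing effect from other variation between the sets. The SLIT2 effect was wider in replicates 3 and 4 than in replicates 1 and 2 by 0.49 for Gbp2 (1.53 and 1.04, limma adjusted p = 0.0148) and by 0.55 for Gbp7 (1.66 and 1.11, limma adjusted p = 0.0279). Without a variance trend neither passed (limma adjusted p = 0.0531 for Gbp2 and 0.0835 for Gbp7), and with no filter on the mean Gbp7 did not (0.0557). All 4 pairings of set and gene had SLIT2 above vehicle. The set means of vehicle cells differed by -0.57 for Gbp2 and -1.17 for Gbp7, and those of SLIT2 cells by -0.08 and -0.62, in each case replicates 3 and 4 minus replicates 1 and 2.

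In the row called Gbp6, SLIT2 replicate 1 held -1.08 while the other 3 SLIT2 libraries held -1.16. The row lies below the level tested. Its other 3 SLIT2 values are equal to 2 decimals, so Dixon's rule would pick out any value that differed from them. The rule picks out about 1 in 20 groups of values by chance, and 18 groups were looked at.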

How the results depend on the processing

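Gbp2, Gbp2b and Gbp3 were higher and past the limma test under all 17 alternatives, with differences of 1.04 to 1.53, 1.52 to 1.84 and 1.14 to 1.54. Gbp7 was higher under all 17 (1.11 to 1.66) and past the test under 12, the exceptions being 5 of the fits that left out a library. Gbp9 passed under none of the 17 (-0.24 to -0.06). The number of members called was 4 in each fit but those 5, where it was 3, and 3 when members were matched by their GENCODE M21 names (chosen after seeing the data), since the row called Gbp5 then drops out. The replicate block changed the call of no member. For the difference between the replicate sets, 2 members passed in limma, 1 with no filter on the mean (Gbp2) and 0 without a trend, where 4 had an unadjusted p under 0.05.

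Counts over all genes moved more than those of the family. Against 1581 genes in limma, the replicate block gave 3912, replicates 3 and 4 alone 2880, replicates 1 and 2 alone 3962 and averaged duplicates 688. There were 1021 to 1254 with a library left out, fewest without SLIT2 replicate 2. Of 68 pathway genes, 21 passed in limma, 34 with the replicate block, 38 in replicates 3 and 4, 42 in replicates 1 and 2, 10 with averaged duplicates and 13 to 17 with a library left out, fewest without vehicle replicate 2. With averaged duplicates, a fit with fewer samples, 12 of the 21 pathway genes called lost their call (Jak2, Batf2, 9930111J21Rik2, Atg3, Atg5, Calcoco1, Pim1, Casp1, Aim2, Pycard, Gsdmd and Nlrc4). Pycard was also lost with quantile normalization (limma adjusted p = 0.0674) and 9930111J21Rik2 with no filter (0.0522). Gbp8 passed in replicates 1 and 2 alone (-0.47, limma adjusted p = 0.0383). Nlrp3, not called over the 8 libraries, passed as lower with averaged duplicates (-0.64, limma adjusted p = 0.0336). The cause of these changes was not tested, and no depth was available.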

Other observations

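Genes that flank the GBP clusters were looked at after the members' values were seen. Next to the chromosome 3 cluster, Kyat3 (Ccbl2 in the table), 63043 bases beyond it, differed by 0.07 (limma adjusted p = 0.765), Gtf2b by 0.04 (0.683) and Pkn2 by 0.13 (0.217, and 0.0289 with the replicate block). On the other side Pdlim5, at 98282 bases, differed by -0.09 (limma adjusted p = 0.546, and 0.0399 with the replicate block). None of these 4 passed the test without a block.

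Next to the chromosome 5 cluster, Abcg3, an ABC transporter gene of the G family that lies 31432 bases from the Gbp8 end, fell by 1.01 (SE 0.12, limma adjusted p = 0.00116). It averaged 7.35 ± 0.19 with SLIT2 and 8.36 ± 0.17 with vehicle (SD, n = 4 each), and the groups did not overlap. On the other side Lrrc8b, Lrrc8c and Lrrc8d, subunits of a volume-regulated anion channel, differed by -0.02, 0.0075 and -0.16, and none passed without a block (Lrrc8d did with it, 0.0472 by limma).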
